A study of Mus musculus with 8 samples.

Results

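Microglia carry receptors on their surface that hold activation in check, and 7 of their genes are described here: Cd33, Siglece, Sirpa, Cd200r1, Lair1, Pilra and Cd300a. They were taken as every region of the deposited acetylation table whose assigned gene name equals one of these symbols. That gave 7 of the 18707 genes and 116 of the 129304 regions in the table. The measurement was ChIP-seq of H3K27ac, histone H3 acetylated at its lysine 27, which marks promoters and enhancers in use. The 2 groups were WT and GrnKO C57BL/6 mice, all aged 2 years, which were perfused with saline before one frozen brain hemisphere was used. GrnKO mice lack a working Grn gene, which encodes the lysosomal and secreted protein progranulin; the label is a genotype name, and the labels used here do not describe the allele. Nuclei were fixed with formaldehyde and sorted as positive for PU.1, the transcription factor that defines myeloid cells, and negative for the oligodendrocyte-lineage protein OLIG2 and the neuronal protein NEUN. Each library came from nuclei of 2 mice pooled, with 2 H3K27ac libraries and 2 input libraries (sonicated chromatin without immunoprecipitation) per genotype. The pooled replicate, not the mouse, is therefore the unit of every SD and test, and n = 2 per genotype throughout.

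Inhibitory receptors of this kind work by a shared logic. When the receptor binds its ligand, tyrosines in its cytoplasmic tail are phosphorylated, and most members then dock the phosphatases encoded by Ptpn6 and Ptpn11, which dampen signals from activating receptors that use the adaptor Tyrobp. Cd33 and Siglece are sialic-acid-binding lectins, and human CD33 is an Alzheimer's disease risk gene. Sirpa binds CD47, the signal that protects cells from being engulfed, and Cd200r1 binds CD200, which neurons display. Cd200r1 differs from the others in signalling through the adaptor Dok2 and the Ras regulator Rasa1. Lair1 binds collagens, Pilra binds sialylated glycoproteins, and Cd300a binds phospholipids exposed on dying cells.

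PU.1, by which the nuclei were sorted, binds sites with the core GAGGAA, so the promoters of 4 receptors are shown with this hexamer in capitals. They are the 250 bases before the annotated start site, 5′ to 3′ on the gene's strand, from RefSeq (GRCm38.p6), and a site on the opposite strand reads TTCCTC.
Siglece (chr7:43660162-43660411, minus strand): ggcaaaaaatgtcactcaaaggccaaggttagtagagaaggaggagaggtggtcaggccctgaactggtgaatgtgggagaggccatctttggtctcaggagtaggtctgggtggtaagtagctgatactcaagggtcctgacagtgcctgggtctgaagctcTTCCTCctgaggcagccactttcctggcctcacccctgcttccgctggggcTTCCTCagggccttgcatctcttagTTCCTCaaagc
Lair1 (chr7:4063205-4063454, minus strand): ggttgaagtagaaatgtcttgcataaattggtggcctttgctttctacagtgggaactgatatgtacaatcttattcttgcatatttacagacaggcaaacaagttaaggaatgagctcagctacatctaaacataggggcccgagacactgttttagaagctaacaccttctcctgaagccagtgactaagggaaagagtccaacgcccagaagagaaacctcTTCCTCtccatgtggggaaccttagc
Cd33 (chr7:43533172-43533421, minus strand): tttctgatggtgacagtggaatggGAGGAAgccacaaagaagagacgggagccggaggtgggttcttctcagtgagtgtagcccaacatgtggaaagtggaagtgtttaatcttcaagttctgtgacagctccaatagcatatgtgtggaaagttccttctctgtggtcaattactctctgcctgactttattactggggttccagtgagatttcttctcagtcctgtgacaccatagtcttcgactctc
Cd300a (chr11:114889791-114890040, plus strand): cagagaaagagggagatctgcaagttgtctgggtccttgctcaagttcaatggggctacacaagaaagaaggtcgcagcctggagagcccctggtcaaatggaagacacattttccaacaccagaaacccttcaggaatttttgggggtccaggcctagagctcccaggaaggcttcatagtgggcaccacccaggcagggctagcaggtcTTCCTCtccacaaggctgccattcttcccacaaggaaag
An entry was found for 5 of the 7 receptors (not for Sirpa or Cd200r1), and each of the 5 held the hexamer on one strand or the other. The Siglece promoter held 3 copies, which began at -87, -36 and -11 from the start site. Cd33 held 1 copy at -226, Lair1 1 at -26, Cd300a 1 at -39, and Pilra, whose promoter is not printed, 1 at -211. Of 32851 mouse promoters of the same length, 23.3% held at least 1 copy and 0.429% held 3 or more. The E-box CACGTG, the core that lysosomal regulators of the TFE family bind, and the AP-1 site TGANTCA were in none of the 5, against 6.02% and 6.75% of all promoters, so no matches of different motifs overlapped. A letter match describes the sequence and does not show that a factor was bound.

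Values are tags per library of 10000000, divided by a TMM factor that equalises the bulk of tested regions, and are called TMM-scaled tags. The H3K27ac libraries held 15491642.5 to 20030832 tags, and 3 tags, the floor of detection, equal 1.50 to 1.94 deposited scaled tags. WT replicate 1 stood apart: 49.4% of its tags lay in the listed regions, against 63.3 to 65.7% in the other 3 libraries, and its TMM factor was 0.825 against 1.04 to 1.08. Without TMM the median change of all tested regions moved from -0.0020 to 0.22 on the log2 scale, and calls were repeated with the deposited scaling. Grn itself served as the check of the labels, and its 3 promoter regions summed to 1313 and 1039 TMM-scaled tags in WT replicates 1 and 2 and to 6.79 and 6.00 in GrnKO. Microglial marker genes (P2ry12, Tmem119, Cx3cr1, Csf1r and Sall1) summed to 31544 to 34871 TMM-scaled tags in WT and 24197 to 25904 in GrnKO, with 4 of the 5 lower by the test and none higher; with the deposited scaling, none of the 5 passed. Markers of border macrophages summed to 819 to 826 in WT and 881 to 951 in GrnKO, with none of 5 past the threshold (1 higher with the deposited scaling), and those of monocytes and neutrophils to 594 to 597 and 385 to 481, with 1 of 3 tested higher and 1 lower (1 and 0 with the deposited scaling). Oligodendrocyte markers summed to 1985 to 1996 and 2502 to 2644 (1 higher and 1 lower of 3 tested), those of neurons to 219 to 267 and 149 to 175 (1 lower of 3 tested, and 0 with the deposited scaling), and those of endothelium to 447 to 516 and 900.3 to 920.3 (1 higher of 2). Lymphocyte markers summed to 21.7 to 42.6 and 21.2 to 45.8 and astrocyte markers to 71.0 to 108 and 68.7 to 87.2, with none of the 3 that could be tested past the threshold, and no marker in the table was at 0 in every library. The part of these shifts in the results below was not tested, and in sorted bulk nuclei fewer cells of a type cannot be told apart from less acetylation per cell.

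In WT nuclei the receptors spanned a wide range of acetylation. Averaged over the tested regions of a gene, each 800 bp wide, Cd33 carried 297 ± 30.5 TMM-scaled tags per region (SD, n = 2), Pilra 279 ± 14.1 and Lair1 204 ± 5.74. Cd33, Pilra and Lair1 stood above 99.4%, 99.3% and 97.1% of all tested genes by this measure. The SDs of Cd33 and Pilra overlap, so their order is not resolved, whereas Lair1 lay below both in each WT library. Cd300a followed at 127 ± 19.1, Sirpa at 111 ± 14.8 and Siglece at 107 ± 2.84 per region, and their ranges of mean ± SD overlap. Cd200r1 was far lower at 22.8 ± 1.53, above only 41.0% of genes. Sirpa had the largest total because the table assigns it 54 regions, against 4 for Siglece, 6 for Cd200r1, 8 for Pilra, 10 for Cd300a, 14 for Cd33 and 20 for Lair1.

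Summed over all regions of each gene, 2 of the 7 receptors fell in GrnKO, Siglece and Lair1, and none rose (limma, Benjamini-Hochberg adjusted p under 0.05). Over all 15380 tested genes 14.5% passed, 8.59% higher and 5.88% lower, so that calls were frequent and 2 in a group of 7 do not set it apart. The median log2 change of the 7 was -0.061, against -0.046 for all tested genes. WT and GrnKO libraries did not overlap for 6 of the 7, Pilra being the exception, and did not overlap for 54.8% of all tested genes. edgeR and DESeq2 on the recovered reads called the same 2 genes. None of the 7 passed with the deposited scaling (limma, 2 at an unadjusted p under 0.05), where 11.7% of all genes did, 10.6% higher and 1.08% lower.

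**Figure D1:**
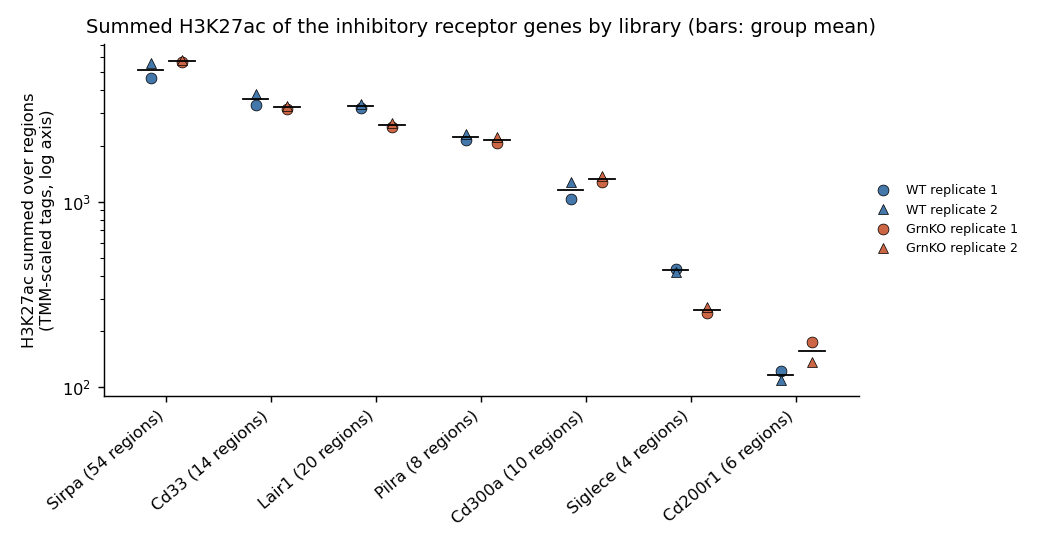
Summed H3K27ac of each receptor gene in each library, in TMM-scaled tags on a log axis, with WT in blue, GrnKO in red, replicate 1 as circles, replicate 2 as triangles and bars at the group means. Siglece (434 and 418 in WT, 253 and 271 in GrnKO) and Lair1 (3211 and 3346, 2531 and 2659) are the genes whose decrease passed the threshold.

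Siglece, the mouse sialic-acid lectin of microglia and neutrophils, had the largest proportional loss of the 7. Its 4 regions summed to 434 and 418 TMM-scaled tags in WT replicates 1 and 2 and to 253 and 271 in GrnKO replicates 1 and 2. Both GrnKO libraries lay well below both WT libraries, and the group means were 426 ± 11.4 and 262 ± 12.9 (SD, n = 2). GrnKO was at 0.615 times WT, a log2 change of -0.70 with SE 0.15, a 95% interval of -1.02 to -0.38 and an adjusted p of 0.00643 (limma). All 4 regions had a negative change (3 of 4 with the deposited scaling), and 1 passed. It was the promoter region centred at -52 bp (chr7:43659813-43660613, mm10), which covers the start site and the 3 GAGGAA copies printed above. It held 221 and 254 TMM-scaled tags in WT and 130 and 151 in GrnKO, a log2 change of -0.75 with SE 0.18 and adjusted p 0.0108 (limma; -0.53 and 0.277 with the deposited scaling). The neighbouring region at -738 bp, named after its values were seen, held 87.6 and 95.9 in WT and 55.7 and 51.0 in GrnKO but did not pass (log2 change -0.77, adjusted p 0.0601, limma). Both promoter regions together changed by -0.76 (adjusted p 0.0139, limma), where 1.66% of all promoter sums were lower. That call was lost with the deposited scaling (-0.53, adjusted p 0.296), without GrnKO replicate 1 (adjusted p 0.192) and without GrnKO replicate 2 (adjusted p 0.0758, limma). The 2 distal regions gave -0.44 with SE 0.31 (adjusted p 0.371, limma), with one WT library at 126 and the other 3 libraries between 67.3 and 69.0. Their change was -0.0099 without WT replicate 1 and passed without WT replicate 2 (-0.88, adjusted p 0.0270, limma). The promoter minus distal change did not pass (-0.31, SE 0.45, adjusted p 0.804, limma). The change of the gene was -0.47 with the deposited scaling and did not pass (adjusted p 0.228, limma), and it was -0.65 without GrnKO replicate 1 (adjusted p 0.100), while the call held without either WT library. The inputs held between 0 and 27.6 deposited scaled tags over the whole gene.

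Lair1, the collagen receptor, also fell in total, by less in proportion. Its 20 regions summed to 3211 and 3346 TMM-scaled tags in WT and 2531 and 2659 in GrnKO, and the groups did not overlap. The means were 3278 ± 95.7 and 2595 ± 90.6 (SD, n = 2), a log2 change of -0.34 with SE 0.080, an interval of -0.51 to -0.16 and adjusted p 0.0125 (limma). Of its 16 tested regions, 14 had a negative change (13 with the deposited scaling), and 3 passed the threshold. Several of the 16 overlap and share reads. All those from -10177 to -27609 bp are annotated inside or at the end of a neighbouring noncoding RNA gene. The deposited values assign them to Lair1, so they count in its total, and their share of its change was not computed. The strongest call lay at -19802 bp (chr7:4082606-4083406), inside an intron of that noncoding RNA gene. There WT held 378 and 345 TMM-scaled tags and GrnKO 225 and 223, a log2 change of -0.69 with SE 0.15 and adjusted p 0.00534 (limma; -0.46 and 0.330 with the deposited scaling). The intergenic region at -8071 bp (chr7:4070875-4071675) went from 174 and 201 to 121 and 111, a change of the same size (-0.69, adjusted p 0.0261, limma; -0.46 and 0.364 with the deposited scaling). The weak region at -15218 bp (chr7:4078022-4078822), in the same intron as the first, went from 42.6 and 35.9 to 13.01 and 9.23 (-1.74, adjusted p 0.0155, limma). Its inputs were not low: on the deposited scale they held 0, 17.1, 17.7 and 51.0 tags in WT inputs 1 and 2 and GrnKO inputs 1 and 2, beside 35.2, 37.2, 14.1 and 9.98 in the H3K27ac libraries. In both GrnKO replicates this region was thus above its H3K27ac value in the input, and what that means for the call was not tested.

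At the Lair1 promoter no region passed. The region at 29 bp (chr7:4062775-4063575), the most acetylated of the gene, held 359.8 and 342 TMM-scaled tags in WT and 352 and 351 in GrnKO. Its log2 change was 0.0023 with an interval of -0.28 to 0.28 (adjusted p 0.995, limma). The other promoter region, at -729 bp, held 203 and 259 in WT and 187 and 203 in GrnKO (-0.23, adjusted p 0.452, limma). Together they gave -0.089 with an interval of -0.36 to 0.18, which includes the change of the whole gene (adjusted p 0.782, limma). The 18 distal regions summed to 2648 and 2745 in WT and 1992 and 2105 in GrnKO, a log2 change of -0.40 with adjusted p 0.00731 (limma), where 7.13% of all distal sums were lower. The distal call was lost with the deposited scaling (-0.17, adjusted p 0.755), without GrnKO replicate 1 (adjusted p 0.154) and without GrnKO replicate 2 (adjusted p 0.0638, limma). The test of the difference itself did not pass: the log2 change of the 2 promoter regions minus that of the distal ones was 0.31, with SE 0.18 and adjusted p 0.540 (limma), in a comparison that called 0.0273% of genes. The call on the whole gene did not hold with the deposited scaling (-0.11, adjusted p 0.872), without GrnKO replicate 1 (-0.30, 0.212) or without GrnKO replicate 2 (-0.37, 0.0810), and held without either WT library.

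By single region, 100 of the 116 passed the filter on low values and 11 were called, 4 higher and 7 lower. That is 11.0% of the tested regions, next to 9.71% of all 80728 tested regions (6.8% higher and 2.92% lower). Before adjustment 30 of the 100 had a p under 0.05, as did 23.9% of all regions, and WT and GrnKO libraries did not overlap at 59 of the 100, against 52.7% of all. The median log2 change of the 100 was 0.066, against -0.0020 for all. The 16 untested regions, 8 of Sirpa, 4 of Lair1, 2 of Cd33 and 1 each of Cd200r1 and Cd300a, never exceeded 14.1 TMM-scaled tags in a library. Of the 11 called regions 2 were centred within 1000 bp of a start site, as were 15 of all 116. The called regions belonged to 5 receptors, since none of Pilra or Cd200r1 passed. With the deposited scaling 5 were called, 4 higher and 1 lower (8.56% of all regions, 8.15% higher and 0.412% lower), and 4 of these were among the 11: Cd300a at -5150 and 18270 bp, Cd33 at -1144 bp and Lair1 at -15218 bp. Without the filter on low values the calls on Cd300a at -10154 bp, Cd33 at -9979 and -10659 bp and Sirpa at -344 bp were lost. Leaving out GrnKO replicate 1 or 2 ended all 11 calls (0 called with limma, with 14 and 16 regions at an unadjusted p under 0.05), where 1.65% and 2.31% of all regions passed. Without WT replicate 1 or 2 there were 18 and 27 calls, where 16.1% and 17.9% of all regions passed.

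**Figure D2:**
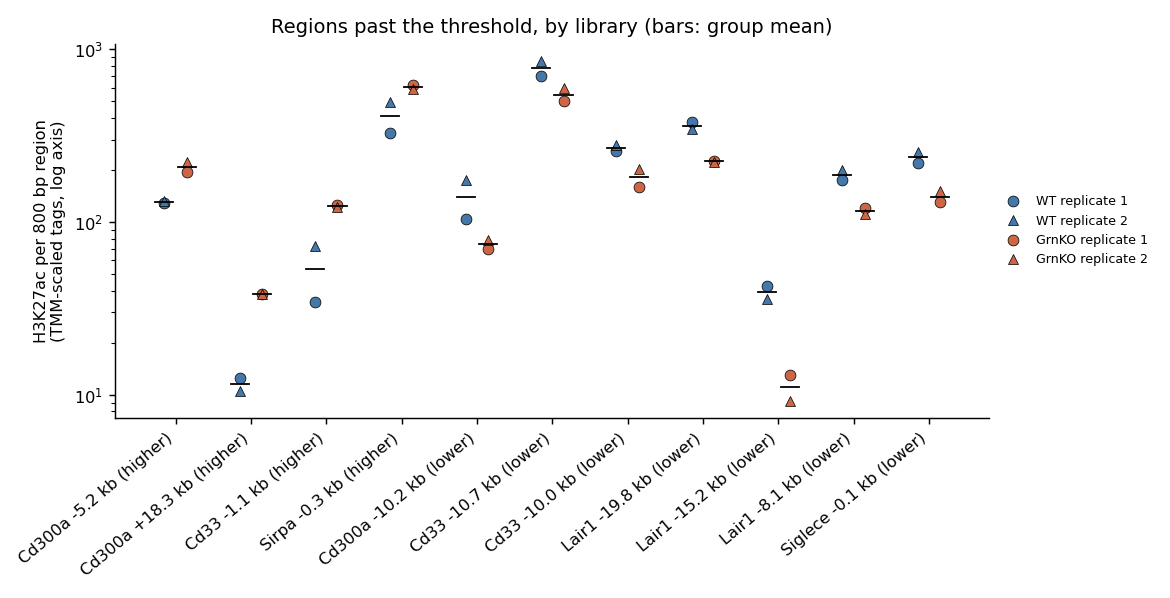
H3K27ac in each library at the 11 receptor regions past the threshold, in TMM-scaled tags per 800 bp region on a log axis, with bars at the group means and labels giving the distance to the start site. At none of them do WT and GrnKO libraries overlap, and the groups lie closest at the 2 upstream Cd33 regions that fell and at the Sirpa region.

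Cd33 showed changes in both directions within its own locus. In total it held 3302 and 3821 TMM-scaled tags in WT and 3147 and 3284 in GrnKO, a log2 change of -0.14 with SE 0.087, an interval of -0.33 to 0.043 and adjusted p 0.323 (limma). The direction of the total turned with the deposited scaling (0.083, adjusted p 0.910), and without WT replicate 1 the decrease passed (-0.25, adjusted p 0.0131). Over non-overlapping regions, a subset in which no region shares bases with another, it was -0.033 (adjusted p 0.860, limma). Far upstream, a cluster of 5 regions between -9979 and -13033 bp holds the most acetylated Cd33 region, at -10659 bp (chr7:43543430-43544230), above 99.8% of all tested regions. That region fell from 704 and 856 to 499 and 595 TMM-scaled tags (-0.51, SE 0.12, adjusted p 0.0133, limma; -0.28 and 0.638 with the deposited scaling). The region at -9979 bp (chr7:43542750-43543550), which overlaps it and shares its reads, went from 258 and 278 to 160 and 204 (-0.57, SE 0.17, adjusted p 0.0410, limma, and 0.0510 with edgeR on the recovered reads; -0.34 and 0.532 with the deposited scaling). The other 3 regions of the cluster had changes between -0.16 and -0.24 and did not pass.

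Close to the Cd33 start site the change was the opposite. The region at -1144 bp (chr7:43533915-43534715) rose from 34.4 and 72.3 TMM-scaled tags in WT to 125 and 123 in GrnKO. The GrnKO libraries agreed closely and the WT libraries differed by more than a factor of 2, yet the groups did not overlap (log2 change 1.29, SE 0.29, adjusted p 0.00864, limma). The change was 0.77 without WT replicate 1 and 1.82 without WT replicate 2, and 1.52 with the deposited scaling (adjusted p 0.00368). The promoter region itself at 39 bp (chr7:43532732-43533532), which covers the start site, held 376 and 521 in WT and 482 and 448 in GrnKO, with no difference beyond the spread (0.071, adjusted p 0.823, limma). The log2 change was -0.25 for the distal regions together (adjusted p 0.0845, limma; -0.022 with the deposited scaling, and past the threshold at -0.33 without WT replicate 1, adjusted p 0.00976) and 0.13 for the promoter regions (adjusted p 0.639), and the difference between them was 0.38 with SE 0.19 and adjusted p 0.497 (limma).

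Cd300a, the phospholipid receptor, also had regions that moved apart. Its total did not pass, at 1039.5 and 1272 TMM-scaled tags in WT and 1283 and 1368 in GrnKO (log2 change 0.20, SE 0.12, interval -0.045 to 0.45, adjusted p 0.286, limma), and passed without WT replicate 2 (0.35, adjusted p 0.0110). Upstream, the intergenic region at -5150 bp (chr11:114884491-114885291) rose from 129 and 133 to 195 and 223 (0.67, SE 0.18, adjusted p 0.0231, limma). Further out, the region at -10154 bp (chr11:114879487-114880287) fell from 104 and 175 to 70.1 and 78.2 (-0.85, SE 0.25, adjusted p 0.0369, limma). That decrease lost its call with the deposited scaling (-0.63, adjusted p 0.254) and without WT replicate 2, where the change was -0.48 (adjusted p 0.187). Downstream, the weak region at 18270 bp (chr11:114907911-114908711) rose from 12.5 and 10.5 to 38.2 and 38.1, or 3.32-fold (log2 change 1.65, SE 0.43, adjusted p 0.0191, limma). One WT input was higher there than either WT H3K27ac library, at 38.0 deposited scaled tags against 10.3 and 10.9, while the other 3 inputs lay between 0 and 2.43. The promoter region at 264 bp (chr11:114889905-114890705), the most acetylated, held 253 and 324 in WT and 290.2 and 334 in GrnKO and did not differ beyond its spread (0.12, adjusted p 0.707, limma). Cd300a lies on the chromosome that carries Grn, 12.4 Mb away. For the genes of the lists below, position relative to Grn was not examined.

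Sirpa, the receptor for CD47, was the most extensively acetylated of the group, with 4631 and 5604 TMM-scaled tags in WT and 5652 and 5798 in GrnKO. Its total did not pass (log2 change 0.17, SE 0.086, interval -0.017 to 0.35, adjusted p 0.233, limma). The value depended on which WT library was kept: it was 0.031 without WT replicate 1 and 0.31 without WT replicate 2, where it passed (adjusted p 0.000175). Of 46 tested regions, many of which overlap and share reads, 34 had a positive and 12 a negative change (39 and 7 with the deposited scaling), and 1 was called. Over all tested regions 49.9% were positive, and 65.3% with the deposited scaling. That region is centred at -344 bp from an alternative start site in the table's annotation (chr2:129594718-129595518) and held 329.7 and 494 TMM-scaled tags in WT and 618 and 591 in GrnKO. The log2 change was 0.58 with SE 0.15 and adjusted p 0.0210 (limma). It was 0.29 without WT replicate 1 (adjusted p 0.0729) and 0.81 with the deposited scaling (adjusted p 0.0792), so neither kept the call. The first start site lies under neighbouring regions that did not pass, one at -164 bp with 373 and 402 in WT and 382 and 432 in GrnKO (0.068, adjusted p 0.812, limma). The most acetylated region, at 946 bp in the first intron, held 599.9 and 748 in WT and 782 and 743 in GrnKO (0.19, adjusted p 0.358, limma). That change was 0.027 without WT replicate 1 and passed without WT replicate 2 (0.35, adjusted p 0.0171, limma), as did the promoter and the distal sum of the gene (0.35 and 0.25). In the low-signal intronic stretch between 8764 and 10412 bp, fitted changes of up to 2.59 rested on 0 to 14.8 TMM-scaled tags per library and none passed.

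**Figure D3:**
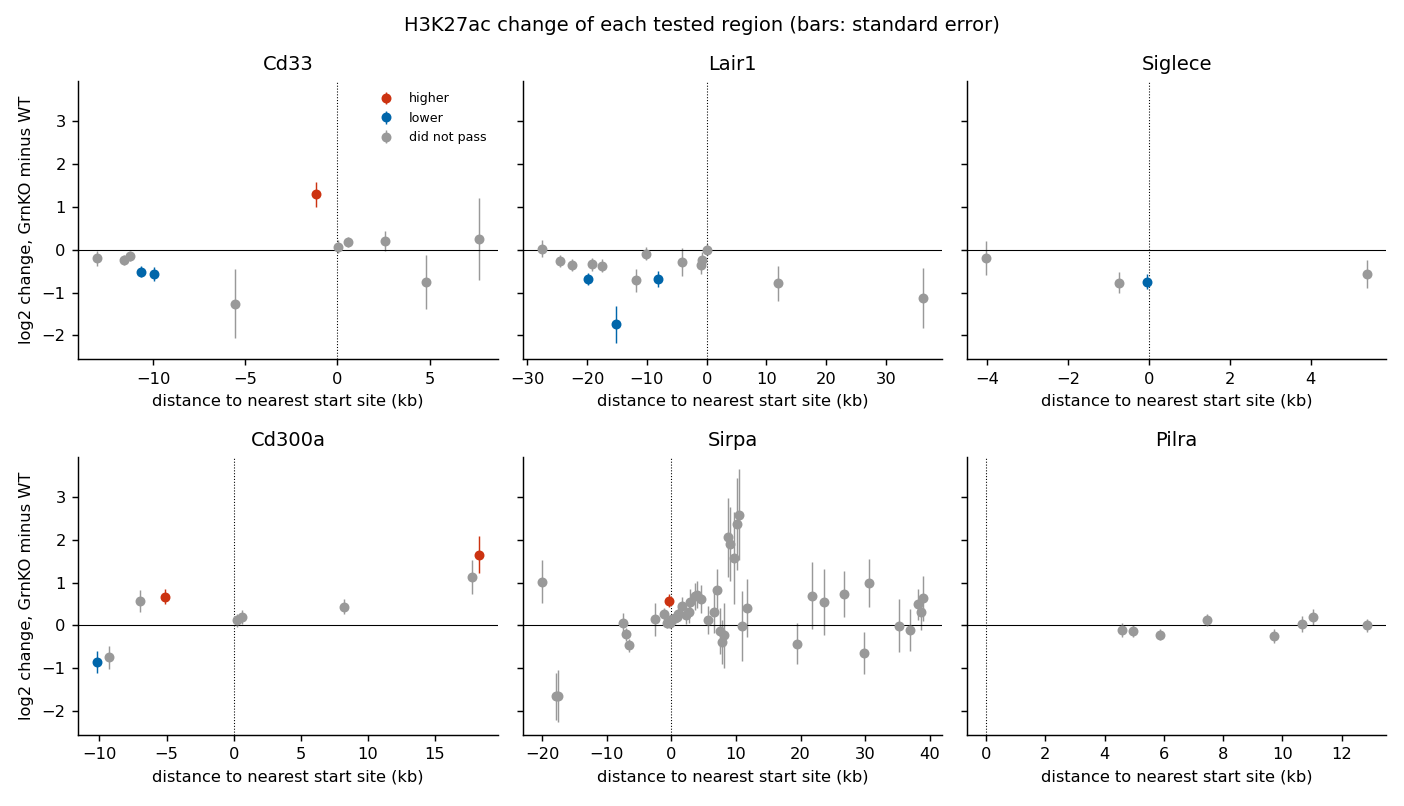
Log2 change in H3K27ac (GrnKO minus WT) of each tested region against the distance of its centre from the nearest start site in kb, for the 6 receptors other than Cd200r1, with standard errors as bars and called regions in red (higher) or blue (lower). Lair1 regions upstream of the start site lie mostly below 0, those of Cd33 lie below 0 in the upstream cluster and above 0 just upstream of the start site, and those of Pilra stay within -0.25 and 0.20.

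Pilra did not pass in total or in any region. It held 2152 and 2311 TMM-scaled tags in WT and 2059 and 2221 in GrnKO, overlapping ranges with a log2 change of -0.061, an interval of -0.25 to 0.13 and adjusted p 0.732 (limma). Its 8 regions, all inside or just past the gene, had log2 changes of -0.25 to 0.20, with 4 positive and 4 negative (7 and 1 with the deposited scaling) and none called. The most acetylated one, in an exon at 4959 bp (chr5:137830919-137831719), held 406 and 429 in WT and 355 and 408 in GrnKO (-0.13, adjusted p 0.598, limma). The region nearest to the start site was at 4591 bp (chr5:137831287-137832087), with 236 and 246 in WT and 208 and 242 in GrnKO (-0.10, adjusted p 0.757, limma), so no listed region covers the annotated promoter. The sign of the total turned with the deposited scaling, to 0.17 (adjusted p 0.782).

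Cd200r1, the receptor for CD200, carried the least acetylation. Its 6 regions summed to 122 and 110.0 TMM-scaled tags in WT and 175 and 138 in GrnKO, non-overlapping but widely spread within GrnKO. The log2 change of 0.42 had SE 0.22, an interval of -0.051 to 0.89 and adjusted p 0.243 (limma). The promoter region at -13 bp (chr16:44765323-44766123) held 44.6 and 45.8 in WT and 60.8 and 57.0 in GrnKO (0.37, adjusted p 0.464, limma). Background was a larger share here than at any other receptor: the 4 inputs held 63.8, 48.1, 19.1 and 64.3 deposited scaled tags over the gene, beside 101, 114, 189.6 and 149 in the H3K27ac libraries in the order WT 1, WT 2, GrnKO 1 and GrnKO 2. Over all receptors, a test of the inputs alone called 0 of 15380 genes (limma, 103 at an unadjusted p under 0.05).

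The genes around these receptors were read from lists of ligands, intracellular partners, other inhibitory receptors and activating counterparts. Of the ligands only Cd47 had enough signal to test, and it fell from 886 and 920.1 TMM-scaled tags to 667 and 718 (log2 change -0.38, adjusted p 0.0404, limma). That call was lost with the deposited scaling (-0.16, adjusted p 0.781), with TMM factors from gene sums (-0.35, adjusted p 0.0680) and without either GrnKO library. Cd200 and the collagen gene Col17a1 were too low to test, at no more than 4.53 and 8.60 in any library. Of 8 partners, 1 rose and 1 fell, where 14.5% of all genes were called: the adaptor gene Grb2 changed by 0.37 (adjusted p 0.0220) and Inpp5d, which encodes the lipid phosphatase SHIP, by -0.21 (adjusted p 0.0221, limma). Neither passed with the deposited scaling, at 0.59 (adjusted p 0.0933) for Grb2 and 0.012 (adjusted p 0.991) for Inpp5d, or without either GrnKO library. The Inpp5d call was also lost with DESeq2 (adjusted p 0.147), without the filter (0.0656) and with TMM factors from gene sums (0.0923). The phosphatase gene Ptpn6, on which most receptors act, held 1082 and 1109.9 in WT and 1009 and 942 in GrnKO (-0.17, adjusted p 0.343), and Ptpn11, Dok2 and Rasa1 did not pass either.

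Other inhibitory receptors of myeloid cells were called in both directions. Of 17 tested, 3 rose and 4 fell, beside 8.59% and 5.88% of all genes, with a median log2 change of -0.10 (all genes -0.046). The counts were 2 and 3 with the deposited scaling, beside 10.6% and 1.08% of all genes. Pecam1, the adhesion receptor CD31, fell from 756 and 729 TMM-scaled tags to 248 and 295 (-1.45, adjusted p 2.6e-05, limma). Cd300lf, a relative of Cd300a that binds phospholipids and ceramide, rose from 424 and 386 to 903 and 998 (1.23, adjusted p 3.9e-05, limma). Siglecg fell from 839.6 and 1070.1 to 483 and 548 (-0.88), and Cd22, another sialic-acid lectin, rose from 334 and 341 to 573 and 564 (0.75). These 4 genes, Pecam1, Cd300lf, Siglecg and Cd22, were called in all 12 alternatives without subtraction of the input change. Pirb, a paired receptor of the leukocyte immunoglobulin-like family, fell from 126 and 130.2 to 50.6 and 65.3 in its single region (-1.14, adjusted p 0.00872, limma), a call lost without GrnKO replicate 1 (-0.96, adjusted p 0.132).

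The list of activating counterparts held activating receptors together with the adaptors Tyrobp, Fcer1g and Hcst. Of its 17 tested genes, 3 rose, among them the adaptor gene Hcst, and 1 fell. That stands beside the same 8.59% and 5.88% of all genes, with a median of 0.14. With the deposited scaling 3 rose and none fell, beside 10.6% and 1.08%, with a median of 0.36 (all genes 0.18). The single region of Cd200r4, an activating relative of Cd200r1, held 11.7 and 12.6 TMM-scaled tags in WT and 75.2 and 72.2 in GrnKO, or 6.07-fold more (log2 change 2.51, adjusted p 0.000767, limma). Sirpb1a, an activating relative of Sirpa, rose from 95.4 and 53.7 to 216 and 138 (1.26, adjusted p 0.0127, limma), a call lost without GrnKO replicate 1. Hcst, which encodes the adaptor DAP10, rose by 0.38 (adjusted p 0.0436, limma), and did not pass with the deposited scaling (0.61, adjusted p 0.0710) or without WT replicate 1 or either GrnKO library. Siglech, a microglial lectin that pairs with Tyrobp, fell by 0.37 on the log2 scale (adjusted p 0.0106, limma), a call lost with the deposited scaling (-0.15, adjusted p 0.811) and without either GrnKO library. Tyrobp itself (0.13) and Trem2 (0.26) did not pass. The Cd200r, Sirpb1, Pira, Pirb and Pilrb genes have near-identical copies, and how reads matching several copies were counted is not given in the sources used here, so their values, and to an extent those of Sirpa, Cd200r1 and Pilra, are uncertain.

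**Figure D4:**
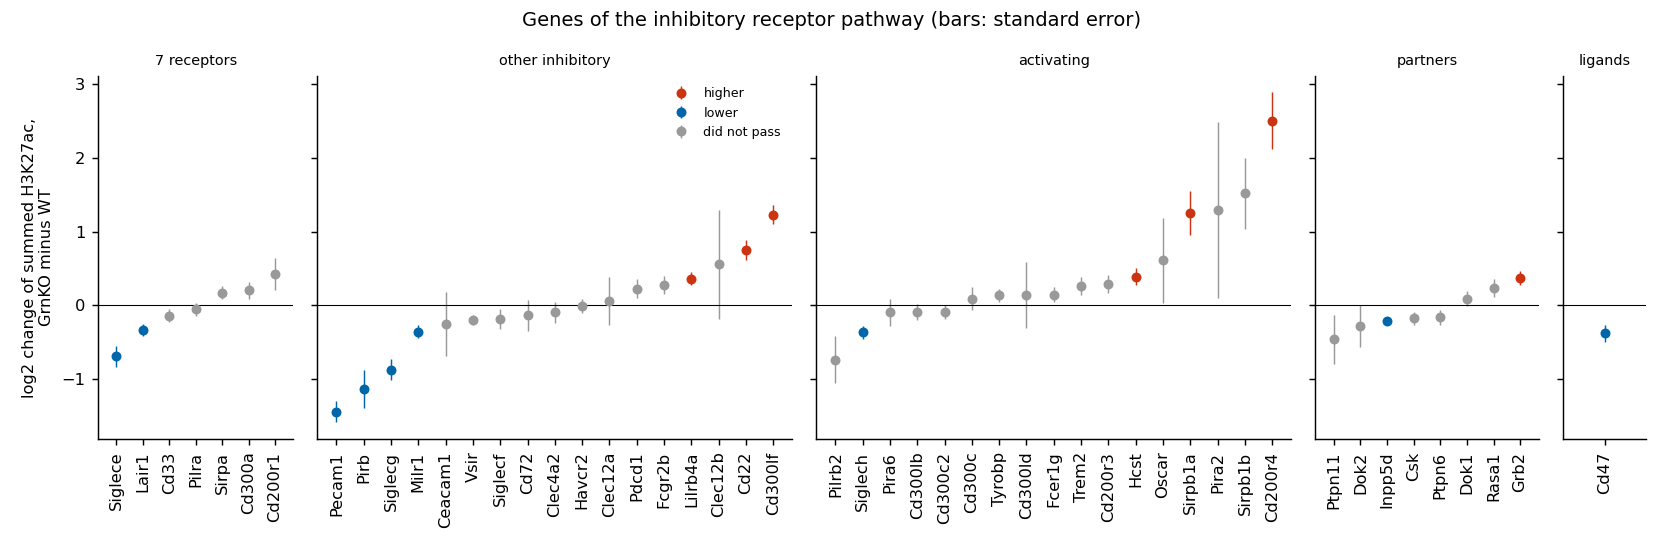
Log2 change of summed H3K27ac (GrnKO minus WT) of each tested gene of the receptor group and the 4 lists, with standard errors as bars and called genes in red (higher) or blue (lower). The 7 receptors range from -0.70 for Siglece to 0.42 for Cd200r1, while the wider lists reach from -1.45 for Pecam1 to 2.51 for Cd200r4.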

How the data were processed

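The 8 libraries were 2 H3K27ac and 2 input libraries per genotype. The authors deposited one table of signal values: per the file headers, tags at 129304 merged ATAC-seq peaks scaled to 10000000 tags per library. Bowtie2, HOMER, DESeq2 and the build mm10 are named in the submitters' processing notes without roles. Multiplying each deposited value by its library total gave whole read ends, at 2 ends per tag, for 100% of values (to within 0.0200 of an end). Every value column was matched to a sample by its title.

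Values were scaled by TMM factors (edgeR 4.0.16), filtered with filterByExpr (minimum 10 tags, by genotype), and tested as log2(value + 1) with limma 3.58.1 (lmFit, eBayes with trend) in R 4.3.3 over all regions, and again over sums per gene with the same factors, with Benjamini-Hochberg adjustment at 0.05. Fold changes on this log2 scale understate those of low regions. Promoter regions are those centred within 1000 bp of a start site. The fits were also run on simulated tags with the same spread in every library. No result here rests on that run, which does not cover a library set apart as WT replicate 1 was. Alternatives were the deposited scaling, a pseudocount of 5, no filter, edgeR or DESeq2 1.42.0 on recovered reads, a replicate block, leaving out each library, non-overlapping regions, a 500 bp promoter window, and subtraction of the input change. TMM factors from gene sums, the separate promoter and distal sums and the alternatives for list genes were added after the data were seen. Replicate numbers come from the titles and do not pair libraries: deviations of same-numbered libraries correlated at 0.0344. Input and H3K27ac libraries carry no molecular identifiers in these values, so floors cover counting error only.

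The text names all 7 receptors, and for each the regions past the threshold, the region nearest to the start site and the region with the highest mean, plus at most 5 genes past the threshold per list, by smallest p. The 7 receptors, the lists and the markers were chosen with earlier results of these data known, and 1 gene of the microglial marker list is not reported here.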

Additional observations from a re-analysis of the deposited data

How the results depend on the processing

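Of 692 alternative values computed, 130 of those for counts and receptor totals and 407 of the others kept their direction and side of the threshold or, for counts, stayed within 1.5 times the reported count. Leaving out one library moved the number of differing regions from 7842 to between 1334 and 14415 and of genes from 2225 to between 774 and 3716. The receptors' counts ranged over 0 to 16 regions higher, 0 to 14 regions lower, 0 to 2 genes higher and 0 to 3 genes lower. Receptor totals ranged from -0.75 to -0.65 for Siglece, -0.37 to -0.30 for Lair1, -0.25 to -0.038 for Cd33, 0.031 to 0.31 for Sirpa, 0.058 to 0.35 for Cd300a, 0.25 to 0.59 for Cd200r1 and -0.12 to -0.0058 for Pilra. A group left with 1 library is assumed to vary like the other.

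With the deposited scaling 1 receptor region and 0 receptor genes were lower, and Siglece (-0.47), Lair1 (-0.11), Cd33 (0.083) and Pilra (0.17) lost their call or turned. Of all calls, 70.0% of regions and 59.4% of genes were higher, and 95.2% and 90.8% with the deposited scaling. Without the filter 4 receptor regions were lower. edgeR on the recovered reads called 6925 regions and 2143 genes.

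After subtracting the input change 0 regions and 0 genes passed with limma (6113 and 887 at an unadjusted p under 0.05), hence 0 receptor regions in either direction (9 at an unadjusted p under 0.05). There Siglece was at -2.71 and Lair1 at -1.62 with SE 2.12 and 0.74. The inputs held 4078179 to 14415969 tags, of which 4.02 to 4.79% lay in listed regions, which limits this alternative.

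The promoter and distal comparison called 2 genes, against 1 with a pseudocount of 5 and 0 with a 500 bp window, with the replicate block and without any 1 library. With the replicate block 11391 regions and 2861 genes passed, and 15 receptor regions, among them all 11. Siglece was at -0.70 (adjusted p 0.00198) and Lair1 at -0.34 (adjusted p 0.00167, limma), and the Cd33 distal sum passed (-0.25, adjusted p 0.0136).

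Single values turned in direction as follows. With the deposited scaling these were the Lair1 promoter sum (0.14), the Pilra distal sum (0.17), the Pilra regions at 4959 bp (0.093) and 4591 bp (0.12), and Inpp5d (0.012). With each library left out in turn, values spanned 0: promoter sums from -0.037 to 0.29 for Cd33 and -0.019 to 0.33 for Cd300a, the Sirpa distal sum from -0.0063 to 0.25, promoter minus distal changes from -0.84 to 0.21 for Siglece and -0.27 to 0.14 for Cd200r1. So did the regions of Cd33 at 39 bp (-0.16 to 0.31), Cd300a at 264 bp (-0.057 to 0.30), Lair1 at 29 bp (-0.034 to 0.039), Pilra at 4591 bp (-0.21 to 0.0051) and Sirpa at -164 bp (-0.021 to 0.16). DESeq2 gave -0.0030 for the Lair1 region at 29 bp. After input subtraction the regions of Cd300a at -10154 bp (0.77), Lair1 at 29 bp (-0.90), Sirpa at 946 bp (-1.81) and -344 bp (-0.44), and the totals of Inpp5d (0.38), Cd22 (-1.82), Sirpb1a (-1.85) and Hcst (-0.065) turned. The cause was not tested.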
